A study of Mus musculus with 12 samples.

Results

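The genes described here are those of the G1 cyclins, their kinases and the CDK inhibitors with the retinoblastoma gene. They were taken from the deposited table by symbol: the D-type cyclins Ccnd1, Ccnd2 and Ccnd3, the kinases Cdk4 and Cdk6, the CIP/KIP inhibitors Cdkn1a and Cdkn1b, the INK4 inhibitors Cdkn2c and Cdkn2d, and Rb1. All 10 were found among 55228 symbols, and all 10 were among the 15043 genes with a mean of at least 1 TPM (transcripts scaled to a fixed total per library) that were tested. A growth signal is translated into cell division largely through these genes. D-type cyclins bind Cdk4 or Cdk6, the complex phosphorylates the retinoblastoma protein, and the E2F factors that this protein holds are released to switch on the genes of DNA synthesis. INK4 proteins compete with the D-type cyclins for Cdk4 and Cdk6, whereas CIP/KIP proteins bind the assembled cyclin and CDK complexes. In T cells, IL-2 is the classical signal that carries an activated cell through G1, with induction of D-type cyclins and loss of p27, the product of Cdkn1b.

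RNA was sequenced from 12 libraries of mouse regulatory T cells (Tregs), 3 in each of 4 groups. CD4+ T cells from the lymph nodes of 16 NOD.Foxp3-GFP mice were pooled and divided into 3 parts, from which Foxp3.GFP+CD25+ Tregs were sorted and then activated separately. On day 2 each culture was transduced with a retroviral MSCV vector carrying the surface reporter Thy1.1 behind an internal ribosome entry site. The vector was either empty (EV) or held one of the tethers, 1G12t or 3A10t, in which an orthogonal IL-2 variant is joined to its receptor chain. On day 4 the cells were washed free of IL-2 and grown for 5 more days, which gave the groups EV no IL-2, 1G12t and 3A10t. A portion of the EV culture stayed in medium with IL-2 throughout, which gave the group EV+IL-2. Thy1.1+ cells of all 4 groups were sorted on day 9. All groups therefore share the reporter mouse, the activation, the vector backbone and an early period in IL-2. The replicates are separate cultures of one pool of animals, so the p-values measure the spread between cultures and not between mice. Libraries that share a replicate number come from the same sort.

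TPM keep no record of read number, and library depth is therefore unknown. The number of symbols above 0 TPM was 30393 to 36239 in the EV+IL-2 libraries and 37930 to 43285 in those of the other groups. What this difference reflects was not tested. TPM were divided by a median-of-ratios factor for each library (0.854 to 1.093), and every level below is in scaled TPM. These are per transcript length, which puts different genes on one scale. The cDNA was amplified before sequencing, and how evenly that carried each gene was not tested. Shares, sums and ratios over genes take the levels at face value. Log2 fold changes are differences between group means of log2(scaled TPM + 1), which understates the change of a gene with few TPM. A gene was called at an adjusted p under 0.05 (limma, Benjamini-Hochberg over the 15043 genes). The spread between replicates, as the median SD over genes on the log2 scale, was smallest with soluble IL-2 (0.109), then 0.119 for EV no IL-2, 0.154 for 1G12t and 0.224 for 3A10t. The 5 Treg markers were present in all libraries but not level between the groups. Foxp3 was at 463, 369 and 391 TPM in 3A10t and at 484 to 510 TPM in the other libraries. That difference was called against EV+IL-2 only. Il2ra and Tnfrsf18 were called higher in EV+IL-2 than in EV no IL-2 (means of 700 against 412 TPM and 2786 against 1760 TPM), and the other 3 markers were not. The 4 B cell markers summed to 14.2 to 27.2 TPM and the 2 CD8 T cell markers to 3.45 to 6.51 TPM. Of the 5 myeloid markers, Cst3 alone was at 440 to 763 TPM, and Lyz2, S100a8, S100a9 and Csf1r were each below 2 TPM in every library. The part of other cells in the results was not tested. In bulk RNA, fewer cells in a given state and less RNA per cell cannot be told apart.

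Promoter sequences are shown for 3 members whose RNA moved with IL-2, since the same signal went with a rise of Ccnd3 and Cdkn1a and a fall of Cdkn1b. Each is the stretch of 250 bases before a transcription start in RefSeq, build GRCm38.p6, plus strand, written 5′ to 3′. The Ccnd3 stretch is chr17:47504801-47505050, before the first of its annotated starts. The Cdkn1a stretch is chr17:29093519-29093768, before the second of its annotated starts, and the Cdkn1b stretch is chr6:134920151-134920400. Capitals mark the letters of a FOXO motif.
Ccnd3: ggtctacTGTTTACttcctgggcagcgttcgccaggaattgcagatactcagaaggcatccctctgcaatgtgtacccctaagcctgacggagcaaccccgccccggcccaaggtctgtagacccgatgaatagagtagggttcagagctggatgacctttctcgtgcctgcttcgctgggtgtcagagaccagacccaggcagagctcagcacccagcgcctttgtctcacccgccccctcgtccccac
Cdkn1a: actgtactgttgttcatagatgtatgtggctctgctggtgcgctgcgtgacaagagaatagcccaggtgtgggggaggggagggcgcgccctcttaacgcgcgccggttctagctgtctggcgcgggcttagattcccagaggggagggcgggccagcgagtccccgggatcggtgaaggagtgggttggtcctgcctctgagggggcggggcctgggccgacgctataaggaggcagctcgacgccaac
Cdkn1b: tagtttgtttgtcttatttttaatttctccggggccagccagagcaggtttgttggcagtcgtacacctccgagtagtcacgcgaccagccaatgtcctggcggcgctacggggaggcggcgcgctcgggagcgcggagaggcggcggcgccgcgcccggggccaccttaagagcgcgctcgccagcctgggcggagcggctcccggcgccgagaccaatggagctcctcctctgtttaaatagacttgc
The 3 stretches hold 59.6%, 64.8% and 64.4% G and C. The RefSeq table has 10 starts for 7 members and none for Ccnd1, Ccnd2 and Rb1. Both strands were searched for the letters TTCNNNGAA of STAT5, the factor that IL-2 activates. They were in 0 of the 10 stretches, against 7.02% of 32851 stretches over all genes. The E2F letters (TTTGGCGC, TTTCGCGC, TTTCCCGC or TTTGCCGC) were also in 0 of the 10, against 1.86% of all. The FOXO letters GTAAACA were in 1 of the 10, against 3.17% of all. This was the Ccnd3 match, which lies on the minus strand at -243 to -237 from the first Ccnd3 start. The stretch before the other Ccnd3 start, chr17:47593217-47593466, held none of the letters searched. A match says only that the letters are in the window, and the absence of one says nothing about a factor's binding elsewhere.

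The members differed widely in abundance. Ccnd2, with a mean of 1171 TPM over the 12 libraries, was above 99.4% of the genes tested. Ccnd3 (387 TPM), Cdk4 (387), Cdkn2d (194) and Cdkn1a (132) followed, then Cdk6 (62.2), Cdkn1b (36.9), Rb1 (25.4) and Cdkn2c (17.7). Ccnd1 was at 0.383 to 1.62 TPM, and only 1.96% of the genes tested were lower. Tregs in this culture thus held their D-type cyclin RNA as Ccnd2 and Ccnd3 under all 4 conditions. Ccnd2 made up 74.0% ± 1.47 of the summed D-type cyclin TPM for EV no IL-2, 72.6% ± 0.952 when IL-2 was kept, 73.95% ± 1.33 for 1G12t and 78.9% ± 2.83 for 3A10t (SD, n = 3).

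**Figure D1:**
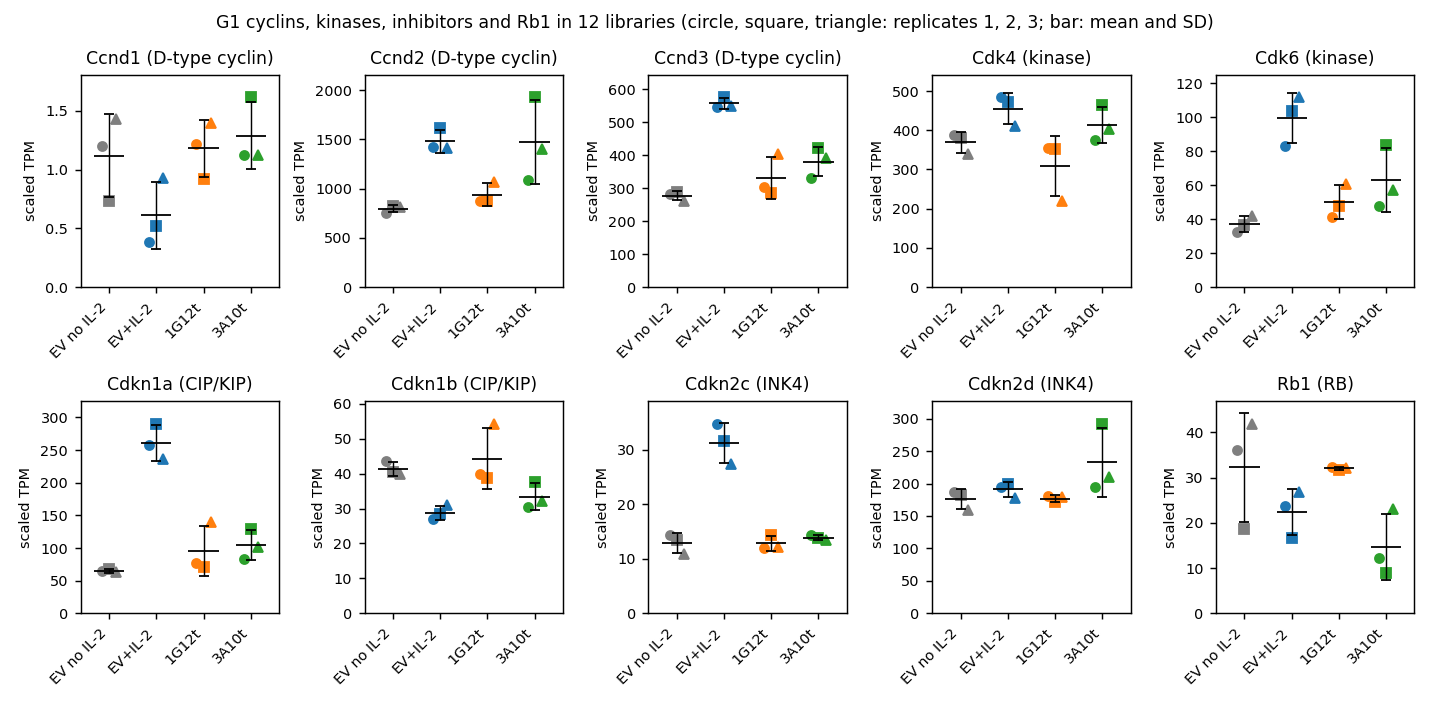
Scaled TPM of the 10 genes (vertical axes, each from 0) in the 4 groups, with circles, squares and triangles for replicates 1, 2 and 3 and a line with bars for the mean and SD of 3 libraries. The EV+IL-2 libraries sit above every other library for Ccnd3, Cdkn1a and Cdkn2c, and the 3A10t libraries spread widely for Ccnd2, from 1083 to 1926 TPM.

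The effect of soluble IL-2 was read from EV+IL-2 against EV no IL-2. Of the 10 members, 5 rose and 1 fell. Over all genes tested 8.17% rose and 5.13% fell. The risers were of both kinds, 2 D-type cyclins and a kinase that drive G1, and 2 inhibitors that restrain it. The median log2 fold change of the members was 0.60, against -0.01 over all genes. The share of all genes whose libraries did not overlap is not given for this comparison. Where libraries are said not to overlap, this describes the single gene only.

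Ccnd2 encodes cyclin D2 and lies on chromosome 6 at chr6:127125162-127152193. It was at 752, 819 and 810 TPM in the EV no IL-2 libraries and at 1417, 1613 and 1407 TPM in EV+IL-2, so that the groups did not overlap. The log2 fold change was 0.90 (SE 0.172, adjusted p = 0.00567, limma). Ccnd3, which encodes cyclin D3, lies on chromosome 17 at chr17:47505051-47599691, just after the promoter shown above. It went from 283, 289 and 261 TPM to 547, 576 and 548 TPM, again with a clear gap between the groups (log2 fold change 1.00, SE 0.126, adjusted p = 0.00039, limma). Ccnd1, the cyclin D1 gene typical of adherent cells, was at 1.199, 0.731 and 1.43 TPM without IL-2 and at 0.383, 0.521 and 0.925 TPM with it. These low values overlapped, although each sort was lower with IL-2 (-0.67, -0.19 and -0.34 on the log2 scale), and the difference did not pass the test (log2 fold change -0.40, 95% interval -0.88 to 0.08, adjusted p = 0.294, limma).

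The kinases differed from each other in the size of their response. Cdk6, on chromosome 5 at chr5:3341485-3531008, was at 32.4, 36.7 and 41.6 TPM in EV no IL-2 and at 83.1, 103 and 112 TPM in EV+IL-2. Its lowest EV+IL-2 library was far above its highest EV no IL-2 library (log2 fold change 1.40, SE 0.209, adjusted p = 0.00126, limma). Cdk4, on chromosome 10 at chr10:127063534-127067920, was at 387, 381 and 339 TPM against 484, 472 and 410 TPM. All 3 EV+IL-2 libraries were higher, and within a sort the log2 difference was 0.32, 0.31 and 0.27. The difference did not pass the test (log2 fold change 0.30, 95% interval -0.07 to 0.67, adjusted p = 0.303, limma). The spread in that test is shared by all 4 groups, and 1G12t replicate 3 lay far from its group for Cdk4. Without that library the adjusted p was 0.0753 (limma), still above the threshold. Cdk6 therefore took a larger part of the Cdk4 and Cdk6 TPM, 18% ± 3.38 with IL-2 and 9.14% ± 1.63 without (SD, n = 3, a description with no test).

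Cdkn1a gave the largest log2 fold change of the 10. It encodes p21, which inhibits CDK2 complexes, helps D-type cyclins assemble with their kinases, and is best known as a target of p53. The gene lies on chromosome 17 at chr17:29090976-29100727. It was at 64.6, 67.3 and 62.5 TPM in EV no IL-2 and at 258, 291 and 236 TPM in EV+IL-2 (log2 fold change 1.99, SE 0.23, adjusted p = 0.00022, limma). Every EV+IL-2 library was above 3 times the highest EV no IL-2 library. Cdkn1b, the p27 gene on chromosome 6 at chr6:134920401-134925513, went the other way, from 43.7, 40.4 and 39.9 TPM to 26.9, 28.4 and 31.0 TPM. The groups did not overlap, and the gene fell (log2 fold change -0.51, SE 0.13, adjusted p = 0.0259, limma). That call was lost on leaving out any of the EV no IL-2 libraries 1, 2 and 3 (adjusted p = 0.0877, 0.063 and 0.0622, limma) and without EV+IL-2 replicate 1 or 2 (0.102 and 0.0808). It was also lost with a length correction (0.0534) or with no filter on low TPM (0.0698), and in all 25 alternatives the log2 fold change stayed between -0.57 and -0.46. With the rise of one gene and the fall of the other, Cdkn1a went from 61.1% ± 1.43 of the summed CIP/KIP TPM to 90.0% ± 1.42.

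The INK4 genes also split. Cdkn2c, which encodes p18, lies on chromosome 4 at chr4:109660876-109667189. It was at 14.4, 13.5 and 10.9 TPM in EV no IL-2 and at 34.8, 31.6 and 27.4 TPM in EV+IL-2, with no overlap (log2 fold change 1.21, SE 0.121, adjusted p = 7.96e-05, limma). Cdkn2d, which encodes p19 and lies on chromosome 9 at chr9:21288410-21291407, was far more abundant but barely moved. Its libraries were at 187, 183 and 159 TPM against 195, 199 and 178 TPM, and overlapped (log2 fold change 0.12, 95% interval -0.18 to 0.41, adjusted p = 0.671, limma). Rb1 encodes the retinoblastoma protein and lies on chromosome 14 at chr14:73183673-73325822. It was at 36.1, 18.7 and 41.9 TPM without IL-2 and at 23.7, 16.7 and 26.8 TPM with it. Replicate 2 was the lowest in both groups and the values overlapped, while within each sort Rb1 was lower with IL-2, by log2 differences of -0.59, -0.16 and -0.63. The test did not pass (log2 fold change -0.46, 95% interval -1.20 to 0.29, adjusted p = 0.461, limma).

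**Figure D2:**
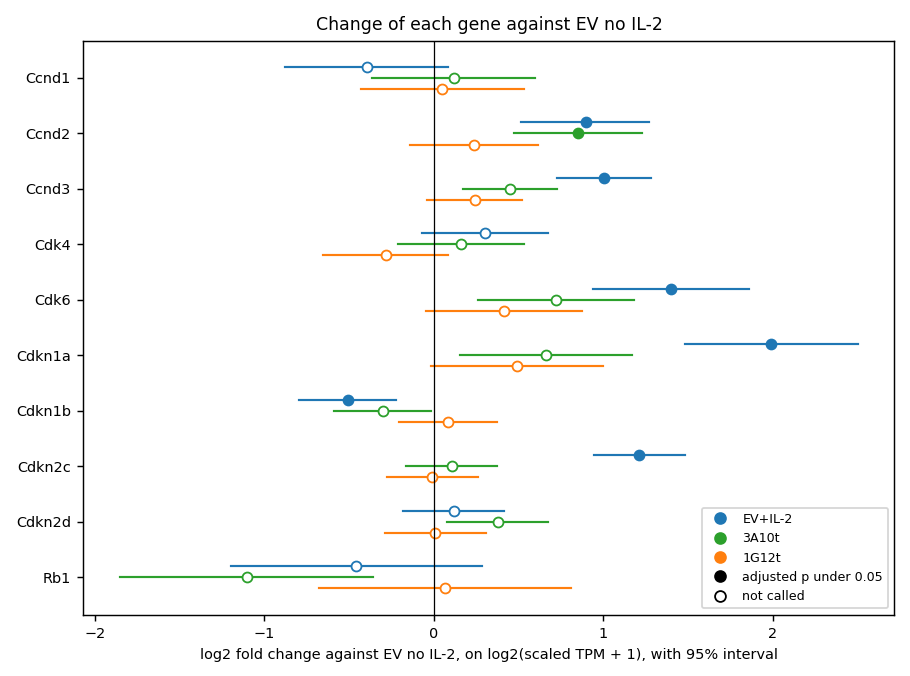
Fold change of each gene from EV no IL-2 on the log2 scale (horizontal axis, on log2(scaled TPM + 1)) in EV+IL-2, 3A10t and 1G12t, with 95% intervals. Filled points passed an adjusted p under 0.05. EV+IL-2 has 6 filled points, 3A10t has 1 (Ccnd2) and 1G12t has 0.

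The tether 3A10t, kept without IL-2, was compared with the same EV no IL-2 libraries, so the comparisons share their controls. Of the 10 members 1 rose and 0 fell at an adjusted p under 0.05, where 0.452% of all genes rose and 1.60% fell. The authors' rule takes genes beyond 0.25 in log2 fold change whose p, before adjustment, is under 0.01, and by it 3 members were higher (Ccnd2, Ccnd3 and Cdk6) and 1 was lower (Rb1). Over all genes that rule gave 2.83% higher and 6.67% lower. Before adjustment, 7 of the 10 had a p under 0.05, as had 26.0% of all genes. The median of the members was 0.27, against 0.03 over all genes.

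Ccnd2 was the member that rose. It was at 1083, 1926 and 1403 TPM with 3A10t, all above the 752 to 819 TPM of EV no IL-2, and within a sort the log2 difference was 0.53, 1.23 and 0.79. The log2 fold change was 0.85 (SE 0.172, adjusted p = 0.0387, limma). The call rested on a narrow margin, since over 25 alternatives it was kept in 11, with adjusted p from 0.000837 to 0.226 and log2 fold changes from 0.63 to 1.05. It was kept without 3A10t replicate 1 (adjusted p = 0.000837, limma) or 1G12t replicate 3, and it was lost without any one of the other 10 libraries (0.0595 to 0.141). Replicate 2 carried the highest Ccnd2 value, and without it the log2 fold change was 0.63 (adjusted p = 0.0711, limma). The same library had the lowest scaling factor of the 12, 0.854, and its deposited value for Ccnd2 was 1645 TPM against 764.5 to 872 TPM in EV no IL-2.

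Ccnd3 in 3A10t was at 332, 421 and 390 TPM, above all 3 EV no IL-2 libraries, with a log2 fold change of 0.45 that did not pass (SE 0.126, adjusted p = 0.0822, limma). Cdk6 was at 47.5, 83.8 and 57.2 TPM, also above EV no IL-2 in every library. Its log2 fold change of 0.72 missed the threshold (SE 0.209, adjusted p = 0.0863, limma) and passed with the replicate number as a block (0.0483). Cdk4, at 375, 464 and 403 TPM, overlapped the controls (log2 fold change 0.16, adjusted p = 0.546, limma). Ccnd1 did too, at 1.13, 1.62 and 1.122 TPM.

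Among the inhibitors in 3A10t, Cdkn1a was at 83.1, 129 and 102 TPM and Cdkn2d at 194, 292 and 211 TPM. Both lay above EV no IL-2 in all 3 libraries, without passing the test (log2 fold changes 0.66 and 0.38, adjusted p = 0.119 and 0.124, limma). Cdkn1b was at 30.4, 37.6 and 32.2 TPM, below all EV no IL-2 libraries, and did not pass either (log2 fold change -0.30, adjusted p = 0.176, limma). Cdkn2c, at 14.5, 13.8 and 13.5 TPM, overlapped EV no IL-2 and had a log2 fold change of 0.11 with a 95% interval of -0.16 to 0.37 (adjusted p = 0.588, limma). For 5 members all 3 libraries thus exceeded the controls, and for 1 all were below them, where 13.3% and 12.1% of all genes did so. Without 3A10t replicate 1 the members called were 5, namely Ccnd2 and, newly, Ccnd3 (adjusted p = 0.0148, limma), Cdk6 (0.0136), Cdkn1a (0.0397) and Cdkn2d (0.0243). Leaving out that library raised the calls in general, to 7.91% of all genes higher and 15.3% lower. Ccnd3 was also called without 1G12t replicate 3 (0.0461).

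Rb1 gave the largest log2 fold change in 3A10t, and it was downward. The libraries were at 12.3, 8.99 and 22.96 TPM against 36.1, 18.7 and 41.9 TPM in EV no IL-2. The lowest EV no IL-2 library lay below the highest 3A10t library, so the groups overlapped, but within each sort the 3A10t library was lower, by log2 differences of -1.49, -0.98 and -0.84. The log2 fold change was -1.10 (SE 0.337, adjusted p = 0.0977, limma), and with the replicate block it passed (0.0446). With the block the members called were therefore 3, Ccnd2, Cdk6 and Rb1, where the blocked fit called 0.605% of all genes higher and 2.07% lower.

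In 1G12t against EV no IL-2, 0 of the 10 members were called, at the adjusted p or by the authors' rule, and 0 had an unadjusted p under 0.05 (limma), against 7.04% of all genes. This comparison also called few genes in all, with 0.0133% of those tested higher and 0.00665% lower at the adjusted p, and 1.13% and 0.226% by the authors' rule. Ccnd2 was at 873, 872 and 1071 TPM and Cdkn1a at 77.2, 70.9 and 140 TPM, in both cases above all 3 EV no IL-2 libraries. No other member was apart from EV no IL-2 in this way. For comparison, 8.68% of all genes lay wholly above and 7.80% wholly below. The 95% interval was -0.14 to 0.61 for Ccnd2 and -0.02 to 1.00 for Cdkn1a. The estimate in 3A10t was within this interval for Cdkn1a (0.66) and above it for Ccnd2 (0.85). The 3A10t interval for Ccnd2, 0.47 to 1.23, overlapped that of 1G12t, and the direct comparison of the tethers did not call Ccnd2 (adjusted p = 0.0601, limma).

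Replicate 3 of 1G12t stood apart from the other 2 for several members. It had Ccnd3 at 403 TPM against 305 and 286, Cdkn1a at 140 against 77.2 and 70.9, Cdkn1b at 54.3 against 39.8 and 38.8, and Cdk4 at 221 against 356 and 351. Cdk6 was at 41.4, 47.4 and 60.9 TPM. Rb1 was nearly constant at 32.3, 31.7 and 32.1 TPM, Cdkn2d was at 180, 171 and 179 TPM, Cdkn2c at 11.9, 14.4 and 12.1 TPM and Ccnd1 at 1.22, 0.921 and 1.40 TPM. Without replicate 3, Cdkn1a had a log2 fold change of 0.19, and with all libraries it had 0.49 (adjusted p = 0.711, limma).

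The tethers were compared directly, 3A10t against 1G12t. At an adjusted p under 0.05, 0 of the 10 members were called, where 1.30% of all genes were higher in 3A10t and 2.96% lower (limma). Before adjustment, 5 had a p under 0.05, namely Ccnd2, Cdk4, Cdkn1b, Cdkn2d and Rb1, as had 29.7% of all genes. By the authors' rule 1 was higher (Ccnd2) and 1 lower (Rb1), against 5.29% and 7.06% of all genes. Ccnd2 lay higher in every 3A10t library than in any 1G12t library, with a log2 fold change of 0.61 (SE 0.172, adjusted p = 0.0601, limma). Rb1 lay lower in every 3A10t library, with a log2 fold change of -1.17 (SE 0.337, adjusted p = 0.0641, limma). With the replicate block both passed (0.0488 for Ccnd2 and 0.0319 for Rb1), so that 2 members were called, against 2.31% of all genes higher and 4.25% lower in the blocked fit. Without 3A10t replicate 1, Ccnd2 and Cdkn2d were called (adjusted p = 0.00347 and 0.0223, limma), with 11.7% of all genes then higher and 15.9% lower. Cdkn1b was below all 1G12t libraries in every 3A10t library (-0.39, adjusted p = 0.0881, limma). Cdk4 (0.45, adjusted p = 0.112) and Cdkn2d (0.37, adjusted p = 0.105, limma) were higher in all. The share of all genes whose libraries lay apart is not given for this comparison. These separations therefore describe the single genes only.

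Soluble IL-2 and the 3A10t tether were also set against each other. In 3A10t against EV+IL-2, 0 members were higher and 4 were lower, where 10.3% of all genes were higher and 13.0% lower. The 4 were Cdkn2c (log2 fold change -1.11, adjusted p = 0.000171), Cdkn1a (-1.33, adjusted p = 0.00267), Ccnd3 (-0.55, adjusted p = 0.011) and Cdk6 (-0.68, adjusted p = 0.0384, all limma). The libraries of the 2 groups did not overlap for the first 3 of these genes, and over all genes 18.9% lay wholly higher in 3A10t and 18.0% wholly lower. For Cdk6 they did, since 3A10t replicate 2 (83.8 TPM) was level with EV+IL-2 replicate 1 (83.1 TPM). The Cdk6 call was lost without EV no IL-2 replicate 2 (adjusted p = 0.0563, limma), EV+IL-2 replicate 2 or 3 (0.0978 and 0.114), 1G12t replicate 2 (0.0549) or 3A10t replicate 1 or 3 (0.0906 and 0.1), and also with quantile normalization (0.0616) or only the 6 libraries compared (0.117). Ccnd3 was no longer called after a length correction on the longest transcript (adjusted p = 0.0636, limma).

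Ccnd2 was the member with the smallest difference between 3A10t and EV+IL-2. Its means were 1471 ± 426 TPM and 1479 ± 116 TPM (SD, n = 3), and the 3A10t libraries lay on both sides of the EV+IL-2 ones. The log2 fold change was -0.05, with a 95% interval of -0.42 to 0.33 (adjusted p = 0.876, limma). Differences of up to about that size in either direction cannot be told from 0 with these libraries. Cdk4, Cdkn1b, Cdkn2d, Rb1 and Ccnd1 were also not called between these groups, but Cdkn2d was called as higher in 3A10t without 3A10t replicate 1 (adjusted p = 0.0476, limma).

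In 1G12t against EV+IL-2, 1 member was higher and 6 were lower, where 9.69% of all genes were higher and 10.9% lower. Cdkn1b was the higher one (log2 fold change 0.59, SE 0.13, adjusted p = 0.00937, limma). The lower ones were Cdkn1a (-1.5), Cdkn2c (-1.22), Cdk6 (-0.99), Ccnd3 (-0.76), Ccnd2 (-0.66) and Cdk4 (-0.59), with adjusted p from 7.7e-05 for Cdkn2c to 0.0313 for Cdk4 (limma). The libraries of the 2 groups did not overlap for any of these 7, as was so for 21.2% of all genes upward and 22.0% downward. The Cdk4 call was lost without EV+IL-2 replicate 1 or 2 (adjusted p = 0.102 and 0.0938, limma) or 1G12t replicate 3 (0.0564), and without the last the log2 fold change was -0.36. Quantile normalization (log2 fold change -0.39, adjusted p = 0.106, limma) and a fit of only the 6 libraries compared (0.0823) lost it too. The Ccnd2 call was lost without EV+IL-2 replicate 2 (adjusted p = 0.0759, limma) or 1G12t replicate 1 or 2 (0.0664 and 0.07).

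Summed over the family, the balance of cyclins and inhibitors could be described per library, with no test. The D-type cyclins summed to 1072 ± 36.6 TPM without IL-2, 2037 ± 132 with soluble IL-2, 1271 ± 177 for 1G12t and 1853 ± 470 for 3A10t (SD, n = 3). The 4 inhibitors summed to 295 ± 20.6, 512 ± 38.6, 329.8 ± 48.4 and 384 ± 78.4 TPM in the same order. The ratio of the sums was 3.34, 3.65 and 3.95 in the EV no IL-2 libraries and 3.82, 3.98 and 4.14 in EV+IL-2, where cyclins and inhibitors were both higher. It was 3.82, 3.92 and 3.83 in 1G12t. In 3A10t it was 4.40, 4.97 and 5.00, above each of the other 9 libraries. The ratio of Ccnd2 to Cdkn1b sets a member that rose with IL-2 over one that fell in these same libraries. Its gap between EV+IL-2 and EV no IL-2 was therefore fixed by that choice. The ratio was 17.2 to 20.3 without IL-2, 19.7 to 22.5 for 1G12t, 35.7 to 51.2 for 3A10t and 45.4 to 56.8 with soluble IL-2. On it 3A10t overlapped EV+IL-2 and neither of the other groups, which restates the levels of the 2 genes given above. Other ratios placed 3A10t differently. Cdkn1a to Cdkn1b also sets a member that rose over one that fell. It was 1.48 to 1.67 without IL-2, 1.825 to 2.57 for 1G12t, 2.74 to 3.42 for 3A10t and 7.625 to 10.2 with soluble IL-2. D-type cyclins to Cdk4 and Cdk6 gave 2.47 to 2.82, 2.91 to 5.24, 3.35 to 4.29 and 3.46 to 3.81 in the same order. RNA levels do not give the amounts of the proteins, which for p27 and the D-type cyclins are set largely by degradation.

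**Figure D3:**
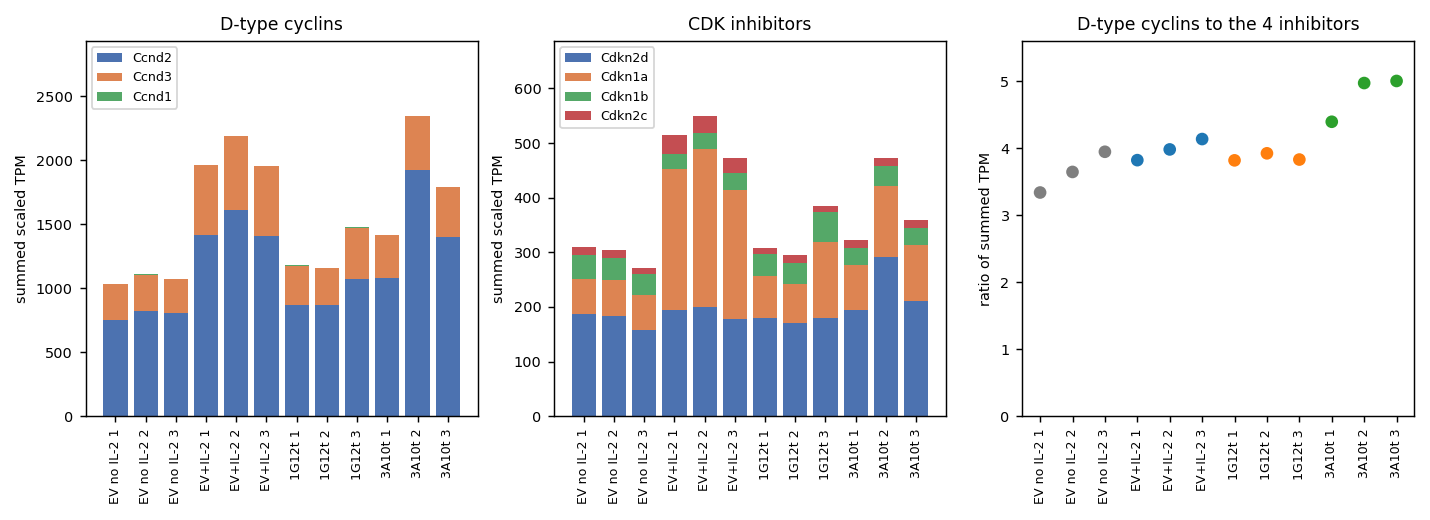
Summed scaled TPM of the D-type cyclins (left) and of the 4 inhibitors (middle), stacked by gene, and their ratio (right) in each of the 12 libraries. Ccnd2 makes up most of the cyclin bars, Cdkn1a fills out the inhibitor bars of EV+IL-2, and the 3 3A10t libraries have the highest ratios, from 4.40 to 5.00.

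The rest of the pathway was followed through lists of further genes. The steps that follow the D-type cyclins rose with IL-2. Of 8 genes of the cyclin E, cyclin A and CDK2 step, 3 rose in EV+IL-2 and 0 fell, with log2 fold changes of 3.43 for Ccna2, 2.06 for Ccne2 and 0.67 for Ccne1. Ccna2, the cyclin of S phase, was at 37.96, 33.4 and 29.5 TPM in EV+IL-2 against 2.84, 2.46 and 1.44 TPM in EV no IL-2. Of 19 E2F target genes of DNA synthesis, 16 rose and 0 fell (median 0.90), among them Rrm2 (2.80), Tk1 (2.37) and Mcm5 (1.75), which serve nucleotide supply and the replicative helicase. All 10 mitotic markers rose, with a median of 2.54, for example Ccnb2 (3.37), Cdk1 (3.19) and Top2a (2.85). The Cdkn1a, Cdkn2c and Cdk6 rises thus came in a group in which the RNA of dividing cells was also higher, and the part of that in the rises was not tested.

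In 3A10t those later steps were mostly not called. Of the 8 cyclin E, cyclin A and CDK2 genes 0 were called without the replicate block (limma). An unadjusted p under 0.05 was found for 1 of them, against 26.0% of all genes, and with the block 1 rose, Ccna2. This gene was at 4.48, 4.39 and 3.36 TPM, above the controls in all 3 libraries (log2 fold change 0.66, adjusted p = 0.0912, or 0.0302 with the block, limma), and Ccne2 was at 3.49, 3.14 and 2.08 TPM. Of the 19 E2F targets 1 rose, Gins2 (log2 fold change 0.54, adjusted p = 0.05, limma, just under the threshold before rounding), and of the 10 mitotic markers 1 rose, Top2a (0.52, adjusted p = 0.0329, limma). With the block Ccnb2 rose too (0.92, adjusted p = 0.056 without and 0.0368 with it, limma). Top2a was at 10.9, 10.7 and 12.3 TPM in 3A10t against 54.7 to 68.9 TPM in EV+IL-2 and 7.24 to 7.96 TPM in EV no IL-2. Without 3A10t replicate 1, 6 E2F targets rose and 3 fell, 4 mitotic markers rose, and 2 genes of the cyclin E, cyclin A and CDK2 step fell. In that fit 7.91% of all genes rose and 15.3% fell. Set directly against EV+IL-2, 18 of the 19 E2F targets and all 10 mitotic markers were lower in 3A10t. Gins2 and the other genes named from here to the end of the next paragraph as called in 3A10t were named after their values were seen, Top2a and Ccnb2 excepted. The Gins2 call was kept in 5 of 25 alternatives and the Top2a call in 13. Both were lost on leaving out any EV no IL-2 library, without 1G12t replicate 1 or 2 and without 3A10t replicate 2 or 3 (adjusted p up to 0.226, limma), Gins2 also without any one EV+IL-2 library and Top2a without EV+IL-2 replicate 2.

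Rb1 has a pair of relatives, Rbl1 (p107) and Rbl2 (p130), of which p130 is the form of resting cells. Of 12 RB relatives, E2F and DP factors, 6 rose in EV+IL-2 and 0 fell, including Tfdp1 (log2 fold change 1.11) and Rbl1 (0.40). With a mean TPM of at least 5 the number that rose was 2, because that filter left out E2f1, E2f3, E2f7 and E2f8. These were named after their values were seen, and each was called in all 24 alternatives that held it. The Rbl1 call was lost on leaving out replicate 1 or 2 of EV no IL-2, or replicate 1 of EV+IL-2 (adjusted p up to 0.093, limma). In 3A10t 0 rose and 1 fell. The one that fell was Rbl2, at 78.6, 67.4 and 58.5 TPM against 115, 135 and 138 TPM for EV no IL-2, 113, 126 and 137.5 TPM for 1G12t and 118 to 124 TPM with soluble IL-2. Every 3A10t library was thus below each of the other 9. The log2 fold change was -0.92 against EV no IL-2 (SE 0.116, adjusted p = 0.00704, limma) and -0.88 against 1G12t (adjusted p = 0.00859, limma), and each call was lost only when the 6 libraries compared were fitted alone (adjusted p = 0.215 and 0.279, limma). Of the 10 genes that govern the turnover of D-type cyclins and p27, 0 rose and 1 fell in 3A10t. It was Ambra1, the adaptor of the ubiquitin ligase that removes D-type cyclins, at 12.8, 9.86 and 9.76 TPM against 15.7, 16.7 and 17.7 TPM in the controls (log2 fold change -0.59, SE 0.12, adjusted p = 0.0396, limma). That call was kept in 7 of 25 alternatives and lost with quantile normalization, with the length corrections and on leaving out any library other than 1G12t replicate 3 or 3A10t replicate 1 (adjusted p up to 0.226, limma). Against 1G12t, Ambra1 was lower by -0.70 (adjusted p = 0.0238, limma), a call lost without 1G12t replicate 2 or 3 or 3A10t replicate 2 or 3, and Rnf123 was lower as well (-0.44, adjusted p = 0.0461, limma), a call kept in 6 of 25 alternatives and lost without any one library but 3A10t replicate 1. Without 3A10t replicate 1, 4 of the turnover genes fell against EV no IL-2, and 1 of the RB relatives, E2F and DP factors rose and 2 fell. Over all genes that fit called 7.91% higher and 15.3% lower, near the shares of the RB, E2F and DP list.

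The direct comparison of 3A10t with 1G12t also gave rises among these lists, in genes named after their values were seen, Ccnb2 and Ccna2 excepted. Of the E2F targets Pcna (log2 fold change 0.47, adjusted p = 0.0349) and Cdt1 (0.40, adjusted p = 0.0497) were higher in 3A10t, and of the mitotic markers Ccnb1 (0.71, adjusted p = 0.0395) and Ccnb2 (0.90, adjusted p = 0.0449, all limma). In the p53 list Trp53 was higher (0.29, adjusted p = 0.0409) and Trp53inp1 lower (-0.56, adjusted p = 0.0436, limma). These calls were kept in 3 (Cdt1) to 12 (Pcna) of 25 alternatives. Without 3A10t replicate 1 all 6 were kept. Leaving out any other library lost each of them (adjusted p up to 0.282 over the alternatives, limma), except that Pcna was kept without EV no IL-2 replicate 1 or 1G12t replicate 1, and Ccnb1 without replicate 1 of EV no IL-2 or of EV+IL-2. With the replicate block Ccna2 passed as well (0.65, adjusted p = 0.027, limma), while Cdt1 (0.0555) and Rnf123 (0.052) did not.

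In EV+IL-2 the turnover list gave 1 rise, Cks1b (log2 fold change 2.17), a cofactor of the ligase that degrades p27, and 1 fall, Fbxo31 (-0.37, adjusted p = 0.0262, limma), which was lost without any single library of either group (adjusted p up to 0.1, limma). Of 3 other CDK inhibitors tested, Cdkn3 (2.02) and Cdkn2b (0.70), both named after their values were seen, rose and Cdkn1c fell (-0.67). With a mean TPM of at least 5 the number that rose was 0, because that filter left Cdkn3 and Cdkn2b out of the test. Each was called in all 24 alternatives that held it. The Cdkn1c call was lost on leaving out replicate 1 or 2 of EV no IL-2, or replicate 2 or 3 of EV+IL-2 (adjusted p up to 0.0811, limma). Of 3 FOXO factors 0 were called in EV+IL-2, 3A10t or 1G12t, and 0 had an unadjusted p under 0.05 (limma). For Cdkn1a, 13 genes of the p53 response were followed. In EV+IL-2 5 rose, among them Phlda3 (1.33), Zmat3 (1.04) and Sesn2 (1.01), and 1 fell. The fall was Btg2 (-0.645 to -0.511 over the alternatives). The other 7, named like Btg2 after their values were seen, were not called. They were Trp53 (0.124, adjusted p = 0.262), Trp53inp1 (0.355, adjusted p = 0.103), Gadd45a (0.375, adjusted p = 0.0587), Sesn1 (-0.61, adjusted p = 0.0533, all limma), Mdm2, Ccng1 and Bbc3. In 3A10t 0 of the 13 were called and in 1G12t 0 (limma). At an unadjusted p under 0.05 there were 5 and 2, against 26.0% and 7.04% of all genes. Without 3A10t replicate 1, 4 fell in 3A10t, where 15.3% of all genes fell. Phlda3 in 1G12t replicate 3 was at 75.4 TPM against 42.4 and 39.8 in the other 2 libraries, and Zmat3 was at 10.5 against 5.396 and 4.91, in the library that was also high in Cdkn1a. In 1G12t against EV no IL-2, 0 genes of any of these lists were called (limma). At an unadjusted p under 0.05 were 2 of the 19 E2F targets and 1 of the 10 mitotic markers, against 7.04% of all genes.

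**Figure D4:**
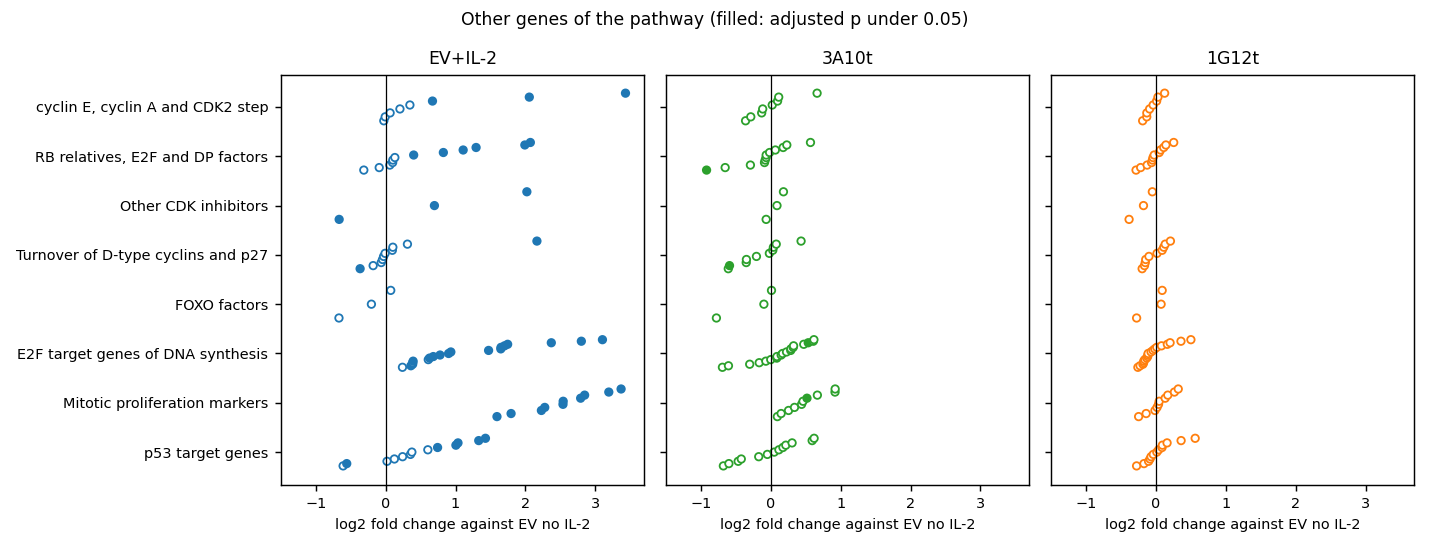
Fold change from EV no IL-2 on the log2 scale (horizontal axes, of scaled TPM + 1) for each gene of 8 further lists in EV+IL-2, 3A10t and 1G12t, filled where the adjusted p was under 0.05. In EV+IL-2 16 of 19 E2F targets and 10 of 10 mitotic markers are filled, against 1 and 1 in 3A10t and 0 in 1G12t.

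Genes whose levels ran most like a member over the 12 libraries were ranked by Pearson r on log2(scaled TPM + 1) among 10041 genes, for the 3 members with the largest change with IL-2. These correlations describe 12 libraries that share 4 conditions and 3 sorts and are given with no p. Cdkn1a ran closest to Psrc1 (r = 0.993), Ppm1j (0.99) and its fellow member Ccnd3 (0.988). Psrc1, a spindle protein gene, had group means of 11 TPM without IL-2, 47.2 with it, 16.1 with 1G12t and 16.8 with 3A10t. Cdk6 ran closest to Fsd1l (0.984), Mgmt (0.966) and Aaas (0.952). Cdkn2c ran closest to Ube2c (0.987), Ccna2 (0.986) and Nusap1 (0.981), genes of S phase and mitosis. Ccna2 had group means of 2.25, 33.6, 2.25 and 4.08 TPM in the same order. Among the members themselves, Cdk6 with Ccnd3 gave 0.945 and with Cdkn1a 0.936, whereas Cdkn2c with Ccnd2 gave 0.556 and with Cdkn2d 0.076.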

How the data were processed

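The deposited values are TPM for 55228 gene symbols in 12 libraries. Per the submitters' processing notes and the study's methods, the authors trimmed reads with Cutadapt 1.18, aligned them to mm10 with STAR 2.5.3 and estimated expression with RSEM 1.3.0. Their own tests, on counts not analysed here, were run in DESeq2 1.26. Depth is unknown and no counting error is given; the spread of 3 libraries is the only error.

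Here TPM were divided by median-of-ratios factors taken from genes that averaged 1 TPM or more. The 15043 such genes were tested with limma 3.58.1 (lmFit, eBayes with a trend, R 4.3.3) on log2(scaled TPM + 1), with one mean per group, all 12 libraries and no block. Groups and replicates came from the labels. Gene positions came from GENCODE M21 (GRCm38), which held 53569 of the symbols. The code was tested on simulated data. Figures used Python 3.11.15 and matplotlib 3.10.9.

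The members, lists and rules were chosen with earlier results of these data known. Every member is named. Of each further list, the 3 genes with the largest change in EV+IL-2 among those called with a mean TPM of at least 5 are named. The replicate number marks a shared sort in the labels. Deviations from group means correlated by 0.0409 on average over 18 same-number pairs of libraries (-0.105 to 0.155) and by -0.0205 over 36 other pairs. Settings tried in turn were pseudocounts of 0.1 and 5, a filter at 5 TPM or none, quantile normalization, deposited TPM without scaling, the replicate block, eBayes without a trend, a length correction (lowess, span 0.3, median transcript length) alone and with the block, only the 6 libraries compared, and each library left out. A length correction on the longest transcript was added after the data were seen.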

Additional observations from a re-analysis of the deposited data

How the results depend on the processing

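The depth behind each value is unknown, and with 3 cultures of one pool of mice per group a small change is not detectable. In EV+IL-2 against EV no IL-2, the calls of Ccnd2, Ccnd3, Cdk6, Cdkn1a and Cdkn2c were kept in all 25 alternatives. The members called in 3A10t against EV no IL-2 were 1, but 0 without a filter on low TPM, with eBayes without a trend, with a length correction on the longest transcript and with only the 6 libraries compared. They were 3 with the replicate block, 2 with the length correction and the block, and 0 to 5 when a library was left out. In 3A10t against 1G12t they were 0, but 2 with a mean TPM of at least 5, with TPM as deposited and with the replicate block, 1 with the length correction and the block, and 0 to 2 when a library was left out. Of these settings, the share of all genes called is given above only for the replicate block and without 3A10t replicate 1. For the others the counts do not say whether the members changed more than other genes. The replicate block changed no other call of a member than those of Cdk6, Rb1 and Ccnd2 given above. In the further lists it changed, beside the calls given above, those of genes named after their values were seen, Mcm7 (adjusted p = 0.0502, lost), Cdt1 (0.0561, lost), Sesn1 (0.0412, gained) and Gadd45a (0.0494, gained) in EV+IL-2 against EV no IL-2, Fbxw7 in 3A10t against 1G12t (0.0379, gained) and Rrm1 in 1G12t against EV+IL-2 (0.0329, gained, all limma). With the length correction and the block Rb1 was also called in 3A10t against EV+IL-2 (adjusted p = 0.0458, limma). The all-gene median log2 fold change moved by over 0.1 with TPM as deposited, from 0.03 to -0.09 in 3A10t against EV no IL-2 and from -0.02 to -0.18 against 1G12t, and without a filter, from 0 to 0.20 in 3A10t and from 0.02 to 0.20 in 1G12t against EV+IL-2. With quantile normalization the share of Ccnd2 in D-type cyclin TPM in EV+IL-2 was 74.3%, that of Ccnd3 25.7% and that of Ccnd1 0.049%, and that of Ccnd1 in 1G12t 0.0648%.

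Signs reversed only for log2 fold changes that were not called. With quantile normalization Ccnd1 was at -0.235 in 1G12t and -0.129 in 3A10t against EV no IL-2 and at -0.0495 in 1G12t against EV+IL-2, and Cdkn2d at 0.0514 in 1G12t against EV+IL-2. With TPM as deposited, in 3A10t against 1G12t, Ccnd1 was at -0.0408, Cdkn1a at -0.0203 and Cdkn2c at -0.0652, while Cdkn2c was at 0.0321 in 1G12t and -0.0331 in 3A10t against EV no IL-2. With the longest-transcript correction, with or without the block, Ccnd2 was at 0.0742 in 3A10t against EV+IL-2 and Cdkn2c at 0.0127 in 1G12t against EV no IL-2. With a library left out, the ranges against EV no IL-2 in 1G12t were -0.0924 to 0.152 for Ccnd1, -0.068 to 0.167 for Cdkn1b, -0.122 to 0.0673 for Cdkn2c, -0.0699 to 0.0528 for Cdkn2d and -0.277 to 0.283 for Rb1. In 3A10t they were -0.0211 to 0.223 for Ccnd1 and -0.00286 to 0.183 for Cdkn2c. Against 1G12t they were -0.0373 to 0.142 for Ccnd1 and -0.00673 to 0.477 for Cdkn1a, and against EV+IL-2 -0.268 to 0.158 for Ccnd2. The causes were not tested.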
